A study of Ovis aries with 36 samples.

Results

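Paired pars tuberalis and hypothalamus tissue from 12 adult Rasa Aragonesa rams was compared by messenger RNA sequencing. The comparison takes the 12 pars tuberalis and 12 hypothalamus libraries, 24 of the 36 libraries in the study, and sets the tissues of the same ram against each other through the animal number in the sample labels. Rams 1 to 6 were labelled active and rams 7 to 12 not active in sexual behaviour, here called inactive, so each tissue held 6 active and 6 inactive rams. The remaining 12 libraries came from the pineal gland of the same rams. No treatment, genotype or season is given in the labels.

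The pars tuberalis is a thin sheet of the pituitary that wraps the stalk below the hypothalamus. In mammals it holds many receptors for melatonin, and its thyrotrophs translate day length into thyrotropin, which acts on the neighbouring hypothalamus. The hypothalamus is brain tissue made of neurons, glia and vessels, and its neurons release the peptides that drive the pituitary and the reproductive axis. As labelled, the comparison therefore sets an endocrine epithelium against neural tissue that lies next to it.

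Depth ran from 19.3 to 44.3 M counts (M, 1000000 counts) per library in the hypothalamus and from 22.6 to 35.4 M in the pars tuberalis. The pars tuberalis was deeper in 6 rams and shallower in 6. The count table gives Ensembl sheep gene identifiers (IDs) without names, and 0 of 26478 IDs matched the gene table used here. Genes are therefore described by ID, level and direction, and neither the labelled tissues nor their cell makeup could be checked against known marker genes. In whole tissue, fewer cells of a type and less RNA per cell cannot be told apart.

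Of the 24 libraries, the hypothalamus of ram 4 stood apart on the axis between the tissues. Each library was placed on the line from the mean hypothalamus profile (0%) to the mean pars tuberalis profile (100%) of the other 11 rams. The hypothalamus of active ram 4 lay at 27%, against -5.18 to 3.16% for the other hypothalamus libraries. Pars tuberalis libraries were more evenly spread, from 84.3% in inactive ram 7, with the next at 91.9%, to 111% in ram 4. The part of tissue mixing in these positions was not tested, and several of the results that these rams move are given with and without them.

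**Figure D1:**
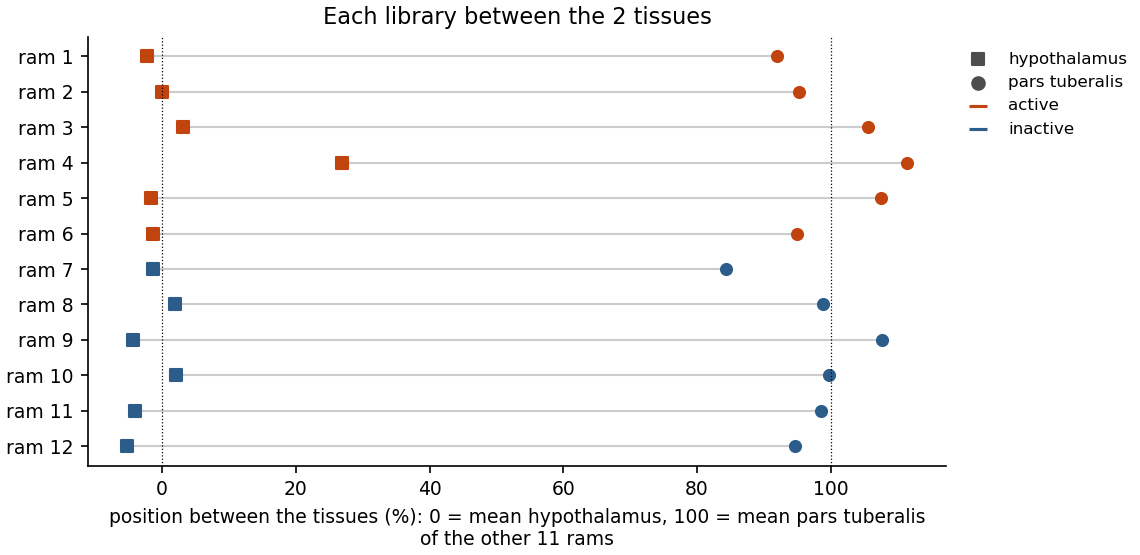
Position of each library on the line between the mean hypothalamus (0%) and mean pars tuberalis (100%) profile of the other 11 rams, in percent, with squares for hypothalamus, circles for pars tuberalis, and colour for state. The tissues never met, and the hypothalamus of ram 4 (27%) lay nearest to the other tissue.

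The tissues differed in 11678 of the 16375 genes tested (71.3%) at a Benjamini-Hochberg adjusted p below 0.05, in an edgeR quasi-likelihood fit that holds the ram as a block. Of these, 5970 were higher in the pars tuberalis (36.5%) and 5708 were lower (34.9%). When the test itself asked for a difference beyond 2-fold, it called 4406 genes (26.9%), of which 1696 were higher (10.4%) and 2710 lower in the pars tuberalis (16.5%). The median log2 difference over all tested genes was 0.042, and the median size without its sign was 0.69. For 7585 genes (46.3%) the 95% interval lay within 2-fold in either direction, and 3617 of those were still called. Of the 4697 genes that were not called, 3968 had an interval within 2-fold, while the interval of the other 729 reached past 2-fold.

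Genes lower in the pars tuberalis outnumbered higher ones among large differences, while the balance over all calls depended on the scaling and on the rams used. Among called genes that differed 1.5-fold or more, 4333 were higher and 4538 lower in the pars tuberalis. At 2-fold or more the numbers were 2518 and 3425, at 4-fold or more 881 and 1861, and at 32-fold or more 135 and 315. From 4-fold upwards, lower genes outnumbered higher ones by 2.11 to 2.52 times at every size. With plain library totals in place of scaling factors the median of all genes moved from 0.042 to 0.19, and 7029 called genes were higher and 4881 lower. With upper quartile factors the counts were 6504 and 5269. Under TMM scaling they were 6033 and 6058 without ram 7, and 5845 and 5647 without ram 4. With library totals the 4-fold classes held 1004 higher and 1707 lower genes, and over all 24 alternatives 640 to 1078 and 1498 to 2355. The hypothalamus thus had more genes far above their pars tuberalis level than the reverse under each of these settings.

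**Figure D2:**
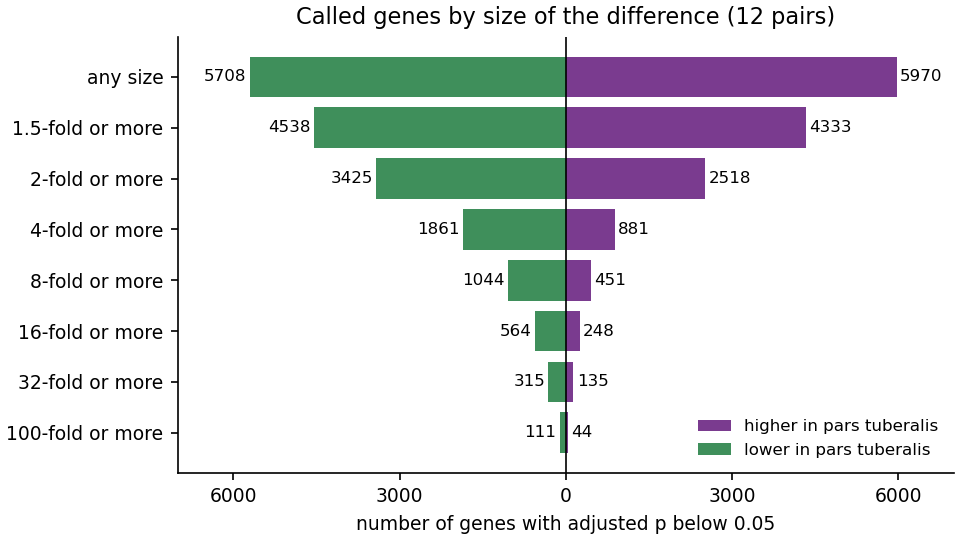
Number of called genes (adjusted p below 0.05) by size of the fitted difference, with bars to the right for genes higher and to the left for genes lower in the pars tuberalis. Under TMM scaling the bars are nearly even over all sizes (5970 and 5708) and uneven at 4-fold or more (881 and 1861).

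ENSOARG00020015754 had the lowest p among genes higher in the pars tuberalis with a mean of at least 10 CPM, where CPM is counts per 1000000 after TMM scaling. Its hypothalamus level ran from 17.8 to 31.5 CPM with a median of 25.8, and its pars tuberalis level from 273 to 534 with a median of 411. The lowest pars tuberalis library was thus far above the highest hypothalamus library, and the ratio within a ram ran from 11.5 to 22.6. Means were 419 ± 72.8 and 25.3 ± 4.49 CPM (SD, n = 12 each). The fitted log2 difference was 4.05 (SE 0.097; edgeR adjusted p 5.27e-13). In the pineal gland its median was 12.6 CPM. Pineal CPM, here and below, comes from a scaling of all 36 libraries, and CPM of the other tissues from the 24 compared.

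ENSOARG00020011838 was present in all pars tuberalis libraries and nearly absent from the hypothalamus. It ran from 3.25 to 35.6 CPM in the pars tuberalis (median 15.9), while the hypothalamus held 1 count in ram 6 and 0 in the other 11 rams. From pooled counts over library totals the ratio was 6053, with a 95% counting interval of 1086 to 239115. Without the hypothalamus library of ram 6 that tissue was at 0, and against a floor of 3 counts over the remaining libraries the level was at least 1914-fold higher in the pars tuberalis. Its edgeR adjusted p was 8.17e-12, and the fitted log2 difference is not used because it depends on the prior count.

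ENSOARG00020022951 had the lowest p of all tested genes and was lower in the pars tuberalis. The hypothalamus ran from 66.3 to 194 CPM (median 130.1) and the pars tuberalis from 0.109 to 0.505 CPM (median 0.237). The tissues did not overlap, and within a ram the hypothalamus was 278 to 807 times higher. Means were 125 ± 47.9 and 0.26 ± 0.11 CPM (SD, n = 12 each). The fitted log2 difference was -8.88 (SE 0.15; edgeR adjusted p 2.52e-14). The pineal gland lay between the tissues, with a median of 22.9 CPM.

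ENSOARG00020009581 was nearly absent from the pars tuberalis and varied widely among hypothalamus libraries. Its hypothalamus level ran from 40.5 CPM in ram 7 to 1107 in ram 1, with a median of 214. All 2 pars tuberalis counts came from ram 4. The pooled ratio was 47405 in favour of the hypothalamus, with a 95% counting interval of 13123 to 391446. Without the pars tuberalis library of ram 4 the ratio was at least 28469, against a floor of 3 counts over the remaining libraries.

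**Figure D3:**
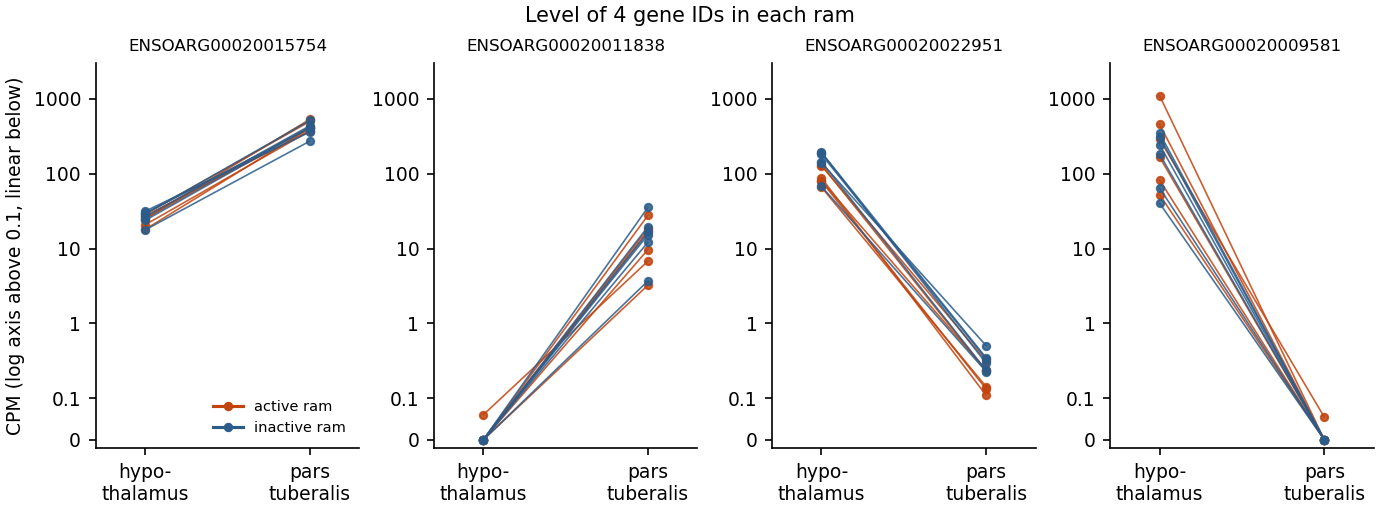
CPM of the 4 IDs in the hypothalamus and pars tuberalis of each ram, on an axis that is logarithmic above 0.1 and linear below, with 1 line per ram coloured by state. Within an ID every line runs the same way, and the tissues do not overlap.

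Few genes were on in every library of 1 tissue and close to silent in the other. Only 2 IDs had at least 1 CPM in all 12 pars tuberalis libraries and at most 0.1 CPM in all 12 hypothalamus libraries. These were ENSOARG00020011838 and ENSOARG00020009074, the latter named after its values were seen, at 1.52 to 9.92 CPM in the pars tuberalis and 1 count in the whole hypothalamus. The reverse pattern was met by 10 IDs, with a median of 6.5 CPM over those IDs. None of the 12 IDs was at 0 counts in every library of its low tissue, the lowest having 1 count. In the pineal gland both pars tuberalis IDs had a median at or below 0.1 CPM, as did 7 of the 10 hypothalamus IDs, while 2 of the 10 reached 1 CPM. Leaving out any 1 ram gave 2 or 3 and 10 to 13 IDs.

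The share of genes called hardly depended on their level. The tested genes were split into 5 equal groups of 3275 by the average of both tissues' log2 CPM. From the lowest to the highest group, 69.5%, 75.1%, 71.9%, 69.6% and 70.5% were called. The standard error shrank along the same order, from a median of 0.32 in the lowest group to 0.11 in the highest. Large differences were most frequent in the lowest group, which the filter and the grouping favour. The filter kept genes with enough counts in as few libraries as 1 group of tissue and state holds. A low level in 1 tissue also pulls the average down. The excess in the lowest group is therefore partly set by these choices and is given as a description. In the lowest group, below 2.48 CPM, the pars tuberalis was higher by 4-fold or more for 396 called genes and lower by as much for 723. The highest group, from 68.6 CPM up, held 70 and 166. Lower genes outnumbered higher ones at 4-fold or more in each of the 5 groups. These groups use counts that are not divided by transcript length.

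Most large differences were shared by all rams. In 2960 genes (18.1%) the pars tuberalis was higher in each of the 12 rams, and in 3439 (21%) it was lower in each. Without ram 7 these counts were 3614 and 3863 over 11 rams, and without ram 4 they were 3174 and 3484. All of the 6399 genes were called, and they made up 54.8% of the called genes. Of the 4406 genes called beyond 2-fold, 3841 (87.2%) had the same direction in 12 of 12 rams. Complete separation was rarer. It was met by 3800 genes (23.2%). In 1587 of them (9.69%) the lowest pars tuberalis library exceeded the highest hypothalamus library, and in 2213 (13.5%) the order was reversed. Without ram 7 these counts were 2182 and 2638, and without ram 4 they were 1860 and 2291. These sets come from the same contrast as the calls, so they describe the calls and are not further evidence for them.

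Each ram was then compared with genes picked from the other 11. Genes with a mean log2 difference of 2 or more in the other rams numbered 862 to 931, and in the ram left out a median of 98.2% of them were higher in the pars tuberalis. Ram 4 had the lowest share, 85.9%, and the next was ram 7 with 96.3%. At least a 2-fold difference was met by a median of 93.7% of those genes, and by 72.3% in ram 4. The median log2 difference of these genes was 1.83 in ram 4 and 2.80 to 3.59 in the other rams. For genes at -2 or less in the others (1828 to 1922 genes), a median of 99.3% were lower in the ram left out, with the lowest share, 95.5%, in ram 7. The slope of a ram's differences on the mean of the others ran from 0.83 in ram 4 and 0.86 in ram 7 to 1.12 in ram 9, with a median of 0.97. The correlation across genes ran from 0.79 in ram 7 to 0.95, and genes are not independent replicates.

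Those genes made up unequal shares of the 2 libraries of a ram. Genes at least 4-fold higher in the pars tuberalis of the other rams took 10.5% ± 1.61 of the pars tuberalis counts and 0.974% ± 0.49 of the hypothalamus counts (SD, n = 12). For these genes the highest pars tuberalis value was 14.5% in ram 1, where the next was 11.7%. The highest hypothalamus value was 2.39% in ram 4, where the next was 1.15%, and without ram 4 the mean was 0.845% ± 0.21 (SD, n = 11). Genes at least 4-fold lower took 23.7% ± 2.78 of the hypothalamus counts and 2.63% ± 0.897 of the pars tuberalis counts. The highest pars tuberalis value was 5.29% in ram 7, where the next was 2.88%, and without ram 7 the mean was 2.39% ± 0.34 (SD, n = 11). Transcripts far above the other tissue thus filled a larger share of a hypothalamus library than of a pars tuberalis library.

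**Figure D4:**
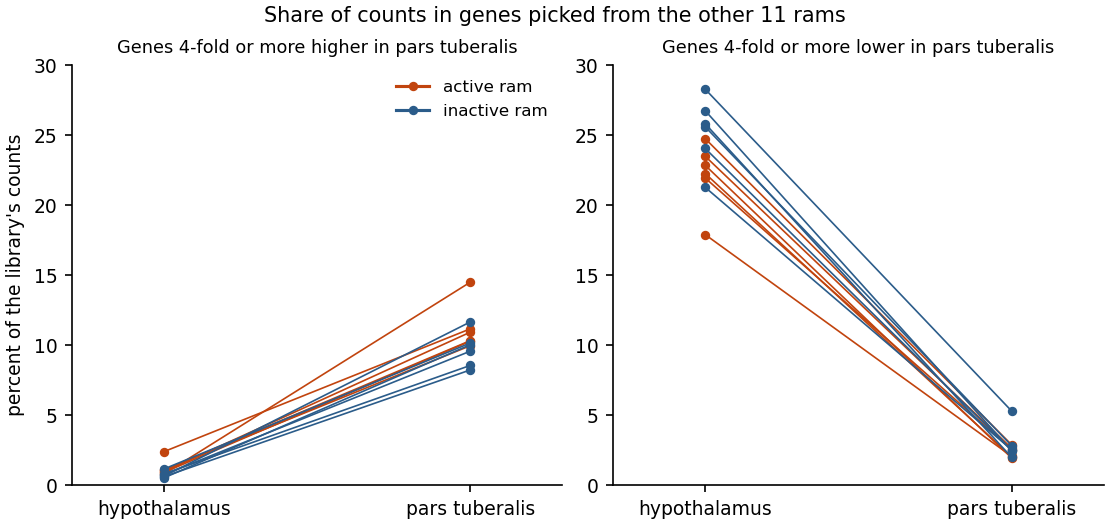
Percent of each library's counts in genes that were 4-fold or more higher (left panel) or lower (right panel) in the pars tuberalis of the other 11 rams, with 1 line per ram coloured by state. The left panel rises from 0.52 to 2.39% up to 8.24 to 14.5%, and the right panel falls from 17.9 to 28.3% down to 1.93 to 5.29%.

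Rams differed from each other more in the hypothalamus than in the pars tuberalis. Over 14269 genes with an average of at least 1 CPM, the SD of log2 CPM between rams had a hypothalamus median of 0.39 and a pars tuberalis median of 0.34. It was larger in the hypothalamus for 9301 genes (65.2%). Without any 1 ram that share lay between 57.5% (without ram 10) and 79.6% (without ram 7). An SD of at least 1 was seen in 815 genes of the hypothalamus and 475 of the pars tuberalis. Large tissue differences place a gene at a low level in 1 tissue, so SDs within such classes are given with that level and as a description. For 594 genes at least 4-fold higher in the pars tuberalis, the median SD was 0.89 at a typical hypothalamus level of 2.78 CPM and 0.44 at a pars tuberalis level of 32.7 CPM. Without ram 4 these were 0.75 and 0.45. For the 1386 genes at least 4-fold lower in the pars tuberalis the hypothalamus median was 0.57 at a level of 37.1 CPM and the pars tuberalis median 0.63 at 3.42 CPM. Without ram 7 they were 0.57 and 0.56. Scarce transcripts also carry more counting error, and its part in these SDs was not tested.

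The lists of the most abundant transcripts overlapped in part between the 2 tissues. Of the 100 genes with the highest median CPM in each tissue, 40 were on both lists, which is 40% of each. On the pars tuberalis list 41 genes were at least 2-fold higher there, and 7 at least 2-fold lower. On the hypothalamus list 58 were at least 2-fold lower in the pars tuberalis, and 7 at least 2-fold higher. Each list was picked by a high level in its own tissue, which by itself favours genes higher there. Over all 16375 tested genes, 2518 called genes were at least 2-fold higher in the pars tuberalis and 3425 at least 2-fold lower. The 60 found only on the pars tuberalis list took 11.1% of its counts, and the 60 found only on the hypothalamus list took 10.9% of its counts. The 40 shared genes took 7.46% and 8.06% in turn, and 26 of them had a fitted difference under 2-fold. With lists of 1000 genes, 585 were shared, or 58.5% of each. ENSOARG00020015153, named after its values were seen, was the most abundant gene in 10 of 12 hypothalamus libraries. It averaged 22476 ± 14015 CPM there, from 7482 to 56737, and 56.2 ± 19.0 CPM in the pars tuberalis (SD, n = 12 each). Its fitted log2 difference was -8.51 (SE 0.26; edgeR adjusted p 4.86e-12). ENSOARG00020009294, named in the same way, led 9 of 12 pars tuberalis libraries at 12543 ± 2094 CPM, against 519 ± 286 in the hypothalamus (log2 difference 4.77, SE 0.24, edgeR adjusted p 4.35e-10).

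Averaged over all rams, counts were spread over slightly more genes in the pars tuberalis, with a larger mean difference in inactive rams that did not hold in all settings. The 1000 most abundant genes of a library held 47.0% ± 2.12 of its counts in the pars tuberalis and 49.0% ± 2.36 in the hypothalamus (SD, n = 12), lower in the pars tuberalis of 11 of 12 rams. Over the 12 pairs the mean difference was -1.98 percentage points, and exact sign flips of the pairs gave a two-sided permutation p of 0.0107 (adjusted p 0.041 over 7 library measures). It took 1180 ± 124 genes in the pars tuberalis and 1063 ± 137 in the hypothalamus to reach 50% of the counts, and the exact permutation p was 0.0117 (adjusted p 0.041). By state, the difference was -0.614 points and 34.2 ± 93.2 genes for active rams and -3.36 points and 199 ± 132 genes for inactive rams (SD, n = 6 each). Between the states the adjusted exact permutation p was 0.0492 for both measures. Those 2 calls by state were lost without any 1 of 8 rams, and without the most abundant gene of each library (adjusted exact permutation p 0.19). Both calls over all rams were lost when any 1 of 9 rams was left out (all but rams 1, 4 and 10), with adjusted p of 0.0034 to 0.082 over the 12 rams. At an equal depth of 19251952 counts, a count was expected for 18201 ± 173 hypothalamus and 17997 ± 123 pars tuberalis genes, a mean difference of -204 genes. It was lower in the pars tuberalis of 10 of 12 rams, with an exact permutation p of 0.021 (adjusted p 0.049), and that call was lost without any 1 of 10 rams (all but rams 2 and 10). The share of the 10 and of the 100 most abundant genes did not pass the test, with mean differences of -1.22 and -0.7 percentage points (adjusted exact permutation p 0.12 and 0.357). Without ram 1 the first was -1.70 points (adjusted exact permutation p 0.0342), and without ram 12 the second was -0.353 points (adjusted exact permutation p 0.567).

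The study's main factor is sexual behaviour, so the tissue difference was compared between active and inactive rams. No gene was called. edgeR's quasi-likelihood test of tissue by state called 0 of 16375 genes, where 317 (1.94%) had an unadjusted p below 0.05. That is under the share of 0.05 that genes without any difference would give on average, so p ran high in this test. The cause was not tested. DESeq2 also called 0 (526 at an unadjusted p below 0.05), as did voom with the ram as a random block (426). For 8836 genes (54%) the 95% interval of the difference between states lay within 2-fold. The median standard error was 0.32 on the log2 scale, against 0.16 for the tissue difference.

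ENSOARG00020013609 and ENSOARG00020017431 had among the lowest p of this test, in opposite directions. For ENSOARG00020013609 hypothalamus levels were 43.1 ± 6.29 CPM (active) and 65.4 ± 14.3 CPM (inactive), and pars tuberalis levels were 26.2 ± 4.07 and 24.2 ± 4.36 (SD, n = 6 each). In the hypothalamus the states overlapped, with up to 51.2 CPM in active and from 48.9 CPM in inactive rams. The difference between states was 0.7 (SE 0.18), with an unadjusted edgeR p of 0.00212 that became 1.0 once adjusted. For ENSOARG00020017431 the hypothalamus had 118 ± 25.9 and 91.7 ± 18.8 CPM and the pars tuberalis 14.5 ± 4.93 and 19.3 ± 5.27, for a difference of -0.79 (SE 0.18) and an unadjusted p of 0.000674. Its states overlapped in both tissues.

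ENSOARG00020025202 had the largest fitted difference of the IDs chosen for state, 5.98 on the log2 scale (SE 1.57), and its hypothalamus level differed widely among inactive rams. Its hypothalamus level ran from 0.027 to 1.05 CPM in active rams (median 0.078). In inactive rams it ran from 0.211 to 13.7 CPM, with 8.12, 11.2 and 13.7 CPM in rams 8, 9 and 12 and 0.865 or less in the other 3. The pars tuberalis held 15 counts in all, with 0 in 5 libraries, so the fitted size rests on few counts. It was 4.17 with voom and ran from 5.23 to 7.19 when single rams were left out. ENSOARG00020019970 had 56.0 ± 25.4 and 37.8 ± 12.4 CPM in the hypothalamus and 16.2 ± 5.86 and 22.0 ± 9.78 in the pars tuberalis of active and inactive rams (SD, n = 6 each). It was highest in ram 2 in the hypothalamus (105 CPM) and in ram 7 in the pars tuberalis (41.4 CPM). Once adjusted over all genes, the edgeR p of both was 1.0.

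The share of counts in the most abundant genes did differ by state, within limits. The 100 most abundant genes held 18.5% ± 1.5 of hypothalamus and 19.5% ± 1.77 of pars tuberalis counts in active rams, and 20.7% ± 1.92 and 18.3% ± 1.74 in inactive rams (SD, n = 6 each). The share was lower in the pars tuberalis of all 6 inactive rams and of 2 of 6 active rams. The within-ram difference averaged 0.991 percentage points for active and -2.39 for inactive rams. Exact permutation of the rams, two-sided, gave p = 0.00433 (adjusted p 0.0227 over 7 measures). For the 10 most abundant genes it averaged 0.251 and -2.70 points (exact permutation p 0.00649, adjusted p 0.0227). Both calls were lost without ram 12 (2.96 and 2.77 points between the states, adjusted exact permutation p 0.0606). They were also lost when the single most abundant gene of each library was left out (2.05 and 1.39 points, adjusted exact permutation p 0.19). That adjustment covered only the shares and the number of genes holding 50% of the counts, fewer than the 7 measures above.

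Within a tissue, tested after these values were seen, no measure passed the test by state. The 10 most abundant genes held 6.83% ± 1.08 of active and 8.67% ± 1.39 of inactive hypothalamus counts (SD, n = 6 each, exact permutation p 0.0303, adjusted p 0.232 over 14 tests). In the pars tuberalis they held 7.08% ± 1.95 and 5.97% ± 0.796 (exact permutation p 0.236, adjusted p 0.472). The leading hypothalamus gene, ENSOARG00020015153, took 1.22 to 1.88% of the counts in active and 0.748 to 5.04% in inactive rams. ENSOARG00020022037, named after its values were seen, led the pars tuberalis libraries of rams 1 and 7. It took 0.205 to 4.74% of pars tuberalis counts in active rams, highest in ram 1, and 0.146 to 1.56% in inactive rams. Pars tuberalis depth was 31.1 ± 3.54 M counts for active and 26.8 ± 3.16 M for inactive rams (exact permutation p 0.0498, adjusted p 0.232). The part of depth in these shares was not tested.

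**Figure D5:**
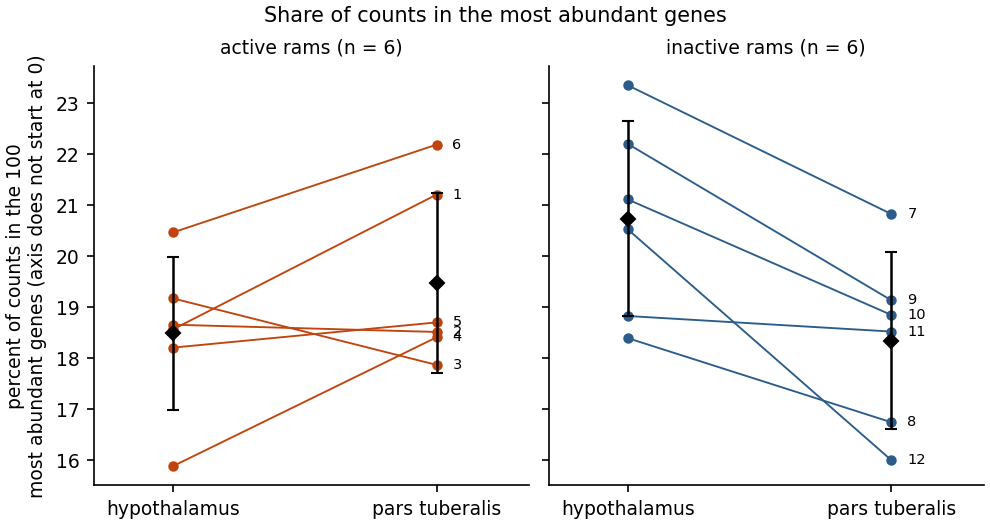
Percent of a library's counts in its 100 most abundant genes, in both tissues of each active (left) and inactive (right) ram, with ram numbers beside the lines and diamonds and bars for the mean and SD (n = 6). All 6 inactive rams fall from hypothalamus to pars tuberalis, while active rams go both ways; the axis does not start at 0.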

How the data were processed

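The deposited table holds the authors' unnormalised whole-number counts for 26478 Ensembl IDs in 36 libraries. Libraries were made with a stranded mRNA kit and adaptors that carry molecular identifiers, per the labels' protocols. The tools named are STAR 2.7.8a, HTSeq, edgeR and FastQC, per the submitters' processing notes. Genome build, annotation, strand setting and whether identifiers were collapsed: not given in the sources used here. Overlapping genes and near-identical copies are therefore uncertain, and intervals on counts cover counting error alone. No 2 libraries of a group were copies: among the 60 such pairs, chi-square divided by its degrees of freedom was 37.4 or more.

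The fit of the 24 libraries used edgeR 4.0.16 (R 4.3.3): filterByExpr with a minimum count of 10 and the 4 groups of tissue and state (16375 genes kept, 10103 removed), TMM scaling, the ram as a block, and a robust quasi-likelihood fit with 11 residual degrees of freedom (10 for tissue by state). SE is the size of the log2 difference over the square root of F. Log2 CPM used a prior count of 0.5. Alternatives used DESeq2 1.42.0, limma 3.58.1, other scalings, filters and blocks, and fewer rams. Library measures used exact sign flips (4096 patterns, SciPy 1.17.1). Scripts were tested on simulated data.

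The labels give both libraries of a ram 1 animal number, which pairs them. Deviations from group means correlated between the tissues of a ram at a median of 0.11 (range -0.028 to 0.35), above 0.1 in 6 of 12 rams. Between different rams of the same state the median was -0.019. Subtracting group means itself pushes that value below 0 when the tissues of a ram correlate, so it is not an independent baseline. A ram's own pars tuberalis was the best match of its hypothalamus in 4 of 12 rams. Comparison, tests and rules were chosen with earlier results of these data known. For IDs without names the rule took the 2 lowest p in each direction averaging 10 CPM or more in the higher tissue, and for tissue by state the 2 lowest in each direction with at least 1 CPM. Lists of gene symbols could not be used. Within-tissue state tests, shares without rams 4 and 7, and counts without single rams of separated and on-off genes were chosen after seeing the data.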

Additional observations from a re-analysis of the deposited data

Results flagged for a closer look

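Some values lay far from the other 5 libraries of their group of 6, by Dixon's test at 95%. This occurred in 13 of 78 sets tested, where chance flags about 1 in 20 (3.9 sets). The sets share libraries and genes, so they are not independent.

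Ram 4, active, stood apart in the hypothalamus. Its position between the tissues was 27%, and genes high in the pars tuberalis took 2.39% of its counts. Ram 7, inactive, stood apart in the pars tuberalis, where genes low in that tissue took 5.29% of its counts and ENSOARG00020019970 reached 41.4 CPM.

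In the pars tuberalis of active ram 1, the 10 most abundant genes held 10.9% of the counts, and genes high in the pars tuberalis held 14.5%. In that of active ram 6 the 1000 most abundant genes held 50.3%, and 985 genes held 50% of the counts. ENSOARG00020017431 was at 23.9 CPM in the pars tuberalis of active ram 2. In the hypothalamus of active rams, ENSOARG00020025202 was at 1.05 CPM in ram 1, and ENSOARG00020019970 was at 105 CPM in ram 2. In 2 further sets the other 5 libraries were at 0, so any count at all met the test: ENSOARG00020009581 at 0.0547 CPM (2 counts) in the pars tuberalis of ram 4, and ENSOARG00020011838 at 0.0602 CPM (1 count) in the hypothalamus of ram 6.

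The tissue difference itself differed by state in 4 library measures, by exact two-sided permutation of the rams with Benjamini-Hochberg adjustment over 7 measures. The difference between active and inactive rams was 2.95 percentage points for the 10 most abundant genes and 3.38 for the 100 most abundant (adjusted exact permutation p 0.0227 for both). It was 2.74 points for the 1000 most abundant genes and -165 for the number of genes that hold 50% of the counts (adjusted exact permutation p 0.0492 for both), and these calls were lost without any 1 of 8 rams (all but rams 2, 3, 7 and 11). The 4 measures come from the same counts and overlap.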

How the results depend on the processing

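Of 484 repeated values, 428 kept their direction and their side of the threshold or stayed within 1.5 times, 52 were no longer past the threshold, 4 newly passed it, and 0 changed direction. Among the 4 was the number of genes present at 0.1 CPM, which was tested alone and so without adjustment. The counts of called genes (8159 to 12432), of genes beyond 2-fold (3399 to 4802) and of tissue by state (0 in all 22 alternatives, with 177 to 690 at an unadjusted p below 0.05) stayed within those limits. The lowest count of called genes, 8159, came from the 6 inactive rams alone; the 6 active rams alone gave 9626. Without the replicate block 11612 genes were called, and 5703 higher and 5565 lower calls were shared with the 5970 and 5708 of the blocked fit. No count of called genes moved by over 1.5 times, while genes with an unadjusted p below 0.05 for tissue by state went from 317 to 522. The highest count, 12432, came from the fit with the pineal libraries included and the replicate block. In each of the 22 edgeR alternatives 0 genes were called in opposite directions.

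The library measures were less stable. Without single rams the tissue difference ran from -197 to -115 for genes at 1 CPM or more (main value -169, adjusted p 0.0812; past the threshold only without ram 10, exact permutation adjusted p 0.0461), and from -1.70 to -0.946, -1.01 to -0.353 and -2.36 to -1.55 points for the 10, 100 and 1000 most abundant genes. It ran from 90.7 to 140.2 genes for those holding 50% of counts and from -246 to -166 for genes at equal depth. The difference by state ran from 2.19 to 3.45, 2.96 to 3.84 and 2.06 to 3.26 points for the 10, 100 and 1000 most abundant genes and from -195 to -124 genes. With no replicate block, the adjusted permutation p was 0.0491 for genes at 1 CPM (-169) and 0.0744 for the 1000 most abundant genes (-1.98) and the genes holding 50% (117). At 0.1 CPM the difference in genes present was -234 (unadjusted exact permutation p 0.0371), and at 10 CPM it was -6.42 (unadjusted 0.948). Each was tested alone, and the unadjusted exact permutation p of the main value at 1 CPM was 0.0464. With the most abundant gene of each library left out, an alternative chosen after seeing the data, the difference by state was 1.39, 2.05 and 1.89 points and -116 genes. The exact permutation p, adjusted over these measures alone, was 0.19 for each, and the cause was not tested. The median standard error was 0.32 in the lowest and 0.11 in the highest of the 5 level groups; the part of depth in it was not tested.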

Other observations

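The pineal gland of the same rams gave another level for the genes that separate the tissues. These levels are means over 12 libraries of log2 CPM (prior count 0.5), with all 36 libraries scaled together. Of the 881 genes at least 4-fold higher in the pars tuberalis, the pineal level was below both tissues in 413 (46.9%), between them and nearer the hypothalamus in 281 (31.9%), between and nearer the pars tuberalis in 106 (12%), and above both in 81 (9.19%). Their median level was 0.89 for the pineal gland, against 0.60 (hypothalamus) and 3.64 (pars tuberalis).

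Of the 1861 genes at least 4-fold lower in the pars tuberalis, the pineal level lay between and nearer the pars tuberalis in 712 (38.3%), between and nearer the hypothalamus in 514 (27.6%), above both in 379 (20.4%) and below both in 256 (13.8%). Their medians were 2.76 for the pineal gland, against 4.20 (hypothalamus) and 1.03 (pars tuberalis). Over all tested genes the pineal level was below both in 31%, above both in 30.7%, between and nearer the hypothalamus in 20.5%, and between and nearer the pars tuberalis in 17.7%. These positions share the pars tuberalis and hypothalamus libraries with the choice of genes and are given as a description.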
